A study of Mus musculus with 7 samples.

Results

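Aquaporins are membrane channels that let water, and in one subgroup also glycerol, pass through lipid bilayers. Transcripts of 7 aquaporin genes, Aqp1, Aqp3, Aqp4, Aqp7, Aqp8, Aqp9 and Aqp11, were followed in liver mRNA of mice lacking TET1, an enzyme that oxidizes methylated cytosine in DNA. The 7 genes were chosen by symbol out of 51426 genes in the count tables, and 5 of them had enough counts to be tested. The TET1 KO livers (n = 4) came from male mice homozygous for a constitutive deletion (Tet1-/-, the B6;129S4-Tet1tm1.1Jae/J allele), and the WT livers (n = 3) from male mice with both Tet1 alleles intact. All 7 mice, labelled C57BL/6J, ate a high-fat diet (HFD) for 16 weeks from 8 weeks of age, so no lean liver was compared. The deletion was present in the whole body and not only in liver cells, and the number of backcrosses of this allele is not given in the sources used here. Each library was made from the liver of 1 mouse.

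Channels of this family differ in what they pass and where they sit. In liver, Aqp9 is the glycerol channel of the hepatocyte membrane that faces the blood, Aqp8 is a water channel found inside hepatocytes and at the bile canaliculus, Aqp1 is the water channel of endothelium, bile duct cells and red blood cells, and Aqp11 sits in the endoplasmic reticulum. Aqp7 and Aqp3 pass glycerol in fat cells and in epithelia such as skin and kidney, respectively, and Aqp4 is best known as the water channel of astrocyte end-feet in brain.

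The libraries held between 15005277 and 22746138 counts, so that 1 CPM (the unit of counts scaled to library size, corrected by TMM for library composition) stood for 14.2 to 24.1 counts. The quasi-likelihood test of edgeR was applied to 14754 genes, and a gene was called when its p, adjusted by Benjamini-Hochberg, was under 0.05. By this rule 2.02% of the tested genes were called, 0.874% higher and 1.15% lower in TET1 KO livers, and in 22.5% the values of both groups did not overlap. The median log2 fold change over all tested genes was 0.01. Tet1 itself had 1, 4 and 1 counts in WT and 2, 1, 4 and 1 in TET1 KO mice, near the floor of 3 counts taken here for a library, so it gave no check of the genotypes (two-sided exact permutation p = 1.0, smallest possible p 0.0286 with 35 splits). The hepatocyte markers, Alb among them, were abundant in every liver, with a summed level between 59860 and 80880 CPM, while the summed markers of skeletal muscle and of kidney tubule did not exceed 1.39 and 0.211 CPM. In whole liver, fewer cells of a type and less mRNA per cell cannot be told apart.

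The 5 tested aquaporin mRNAs had unlike fold changes. Aqp4 fell 5.47-fold, Aqp8 was lower in each TET1 KO liver than in any WT liver without passing the test, and Aqp9, Aqp1 and Aqp11 had fold changes close to 1. Of the 5 tested members 1 was called lower and 0 higher, and in 2 the groups did not overlap, with a median log2 fold change of -0.19. At an unadjusted p under 0.05 in edgeR 2 members were lower and 0 higher, and DESeq2 called the same numbers at an adjusted p under 0.05. Over all genes, edgeR gave an unadjusted p under 0.05 to 26.3%, with 13.6% higher and 12.7% lower, and DESeq2 called 9.14% of the 14577 genes to which it gave an adjusted p, with 4.34% higher and 4.8% lower. All counts of listed genes by these 2 rules, here and further on, have these shares as their background. With 5 genes these counts describe the members one by one and are too few to set against the shares over all genes.

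**Figure D1:**
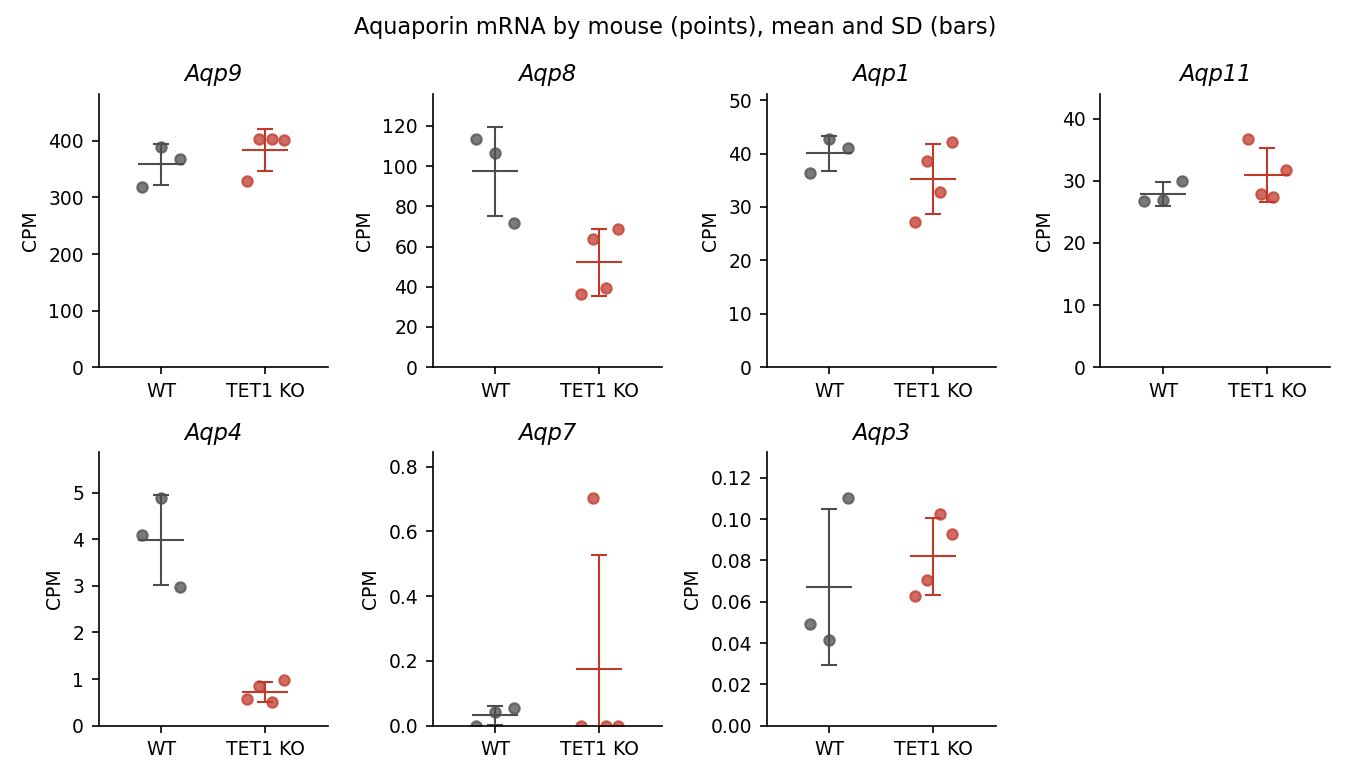
Level of each aquaporin mRNA in CPM (vertical axes from 0, a different scale for each gene) in 3 WT and 4 TET1 KO livers, with 1 point per mouse and bars for the mean and SD. The WT and TET1 KO points are separate for Aqp4 and Aqp8 and overlap for the other 5 genes.

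The genes lie on 5 autosomes. In RefSeq for GRCm38.p6, Aqp9 spans chromosome 9 from 71110659 to 71167849 on the minus strand, Aqp8 chromosome 7 from 123462294 to 123468003 on the plus strand and Aqp11 the same chromosome from 97726379 to 97738247 on the minus strand. Aqp1 spans chromosome 6 from 55336299 to 55348555 on the plus strand. Aqp7 and Aqp3 are neighbours on the minus strand of chromosome 4, at 41033074 to 41048237 and 41092724 to 41098183, with 44486 bases between them. A lncRNA gene, Gm32714, lies inside the span of Aqp9 (71150751 to 71159644) and was not matched in the count tables.

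Since TET1 acts on methylated cytosine, which in mammals is found mostly in CG dinucleotides, the 250 bases before the transcription start are shown for the most abundant member, for the one with the largest change among the abundant members, and for the one richest in CG. Methylation was not measured in these livers. The sequences are from RefSeq (GRCm38.p6), read 5′ to 3′ on the strand of the gene, with each CG in capitals. A match was found for 6 of the 7 members, all but Aqp4, and Aqp9 and Aqp7 each had a second start site, so the first listed is shown. Both start sites listed for Aqp9 lie inside the span of the gene, so that the stretch shown for it lies within the gene, 4310 bases from its 5′ end, while those of Aqp8 and Aqp11 end where the gene begins.
Aqp9 (chr9:71163290-71163539, minus strand): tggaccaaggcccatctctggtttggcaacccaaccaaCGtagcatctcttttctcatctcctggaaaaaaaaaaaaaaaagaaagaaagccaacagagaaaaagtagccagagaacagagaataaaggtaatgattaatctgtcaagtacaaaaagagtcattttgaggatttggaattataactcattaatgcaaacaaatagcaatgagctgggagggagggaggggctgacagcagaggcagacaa
Aqp8 (chr7:123462044-123462293, plus strand): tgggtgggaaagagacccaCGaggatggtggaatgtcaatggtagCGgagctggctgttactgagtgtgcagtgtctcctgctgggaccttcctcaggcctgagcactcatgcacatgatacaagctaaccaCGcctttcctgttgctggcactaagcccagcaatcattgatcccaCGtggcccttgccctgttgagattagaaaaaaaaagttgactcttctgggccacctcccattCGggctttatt
Aqp11 (chr7:97738248-97738497, minus strand): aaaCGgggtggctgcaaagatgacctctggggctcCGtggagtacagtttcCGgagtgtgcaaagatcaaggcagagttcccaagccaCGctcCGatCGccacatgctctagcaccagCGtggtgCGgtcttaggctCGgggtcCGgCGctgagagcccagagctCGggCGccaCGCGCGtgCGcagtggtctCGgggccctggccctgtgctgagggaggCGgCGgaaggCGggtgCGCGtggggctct

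The stretch before Aqp9 holds 1 CG, that before Aqp8 holds 5 and that before Aqp11 holds 23. Over 27018 mouse genes the median was 6, with at most 1 CG in 19.4% of the stretches, at most 5 in 49.5% and at least 23 in 13.0%. Aqp1 has 5 CG, as many as Aqp8, and Aqp3 has 14, while the start sites of Aqp7 have 0 and 2 and the second site of Aqp9 has 3. These counts describe the reference letters only.

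Levels can be compared between genes only per length, and were expressed as CPM per kilobase of annotated exons. Aqp9 led in every liver, with 86.5 ± 8.88 CPM per kb (SD, n = 3) in WT and 92.7 ± 8.82 CPM per kb (SD, n = 4) in TET1 KO livers. Aqp8 came next in WT livers at 61.7 ± 14.1 CPM per kb, and its range of 45.6 to 71.9 did not reach that of Aqp9, from 76.7 to 94.1. Aqp11 (21.1 ± 1.41) and Aqp1 (15.3 ± 1.25) followed in WT livers, again without overlap. Aqp4 stood far below them at 0.750 ± 0.181 CPM per kb, and Aqp3 and Aqp7 at 0.0366 and 0.0114 CPM per kb could not be ordered, since both lay at or under the floor.

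The order below Aqp9 was less clear in TET1 KO livers. Aqp8 had 33.0 ± 10.6 and Aqp11 23.4 ± 3.27 CPM per kb (SD, n = 4), with ranges of 23.1 to 43.7 and 20.7 to 27.8 that overlapped. In TET1 KO replicate 1 Aqp11 (27.8 CPM per kb) lay above Aqp8 (23.1 CPM per kb), which happened in no other liver. Aqp1 stayed below Aqp11 in each of the 7 livers, at 13.4 ± 2.50 CPM per kb in the TET1 KO group. Aqp4 at 0.136 ± 0.0418 CPM per kb overlapped with Aqp7, which reached 0.249 CPM per kb in 1 liver.

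Expressed as shares of the summed level of the 7 members, the genotypes differed in the parts of Aqp8 and Aqp9. In WT replicates 1 to 3 Aqp8 made up 39.2%, 33.9% and 26.3% of the sum, and in TET1 KO replicates 1 to 4 16.4%, 23.3%, 16.0% and 24.2%. All 4 TET1 KO livers lay below all WT livers, although the gap between WT replicate 3 and TET1 KO replicate 4 was small. Aqp9 made up 41.8%, 47.2% and 51.2% in WT and 56.5%, 55.9%, 62.5% and 53.5% in TET1 KO livers, again without overlap. The CPM per kb of Aqp9 itself overlapped between the groups (76.7 to 94.1 against 79.4 to 97.3), so its larger share went with the smaller amount of Aqp8. The shares of Aqp11 (11.4% ± 1.50 in WT, 14.6% ± 3.45 in TET1 KO) and Aqp1 (8.25% ± 0.749 and 8.17% ± 0.652) overlapped. Aqp4 made up 0.402% of the pool in WT and 0.0825% in TET1 KO livers, so that its fall hardly touched the sum, which was 173.2 to 199.2 CPM per kb in WT and 140.7 to 180.7 in TET1 KO livers. Shares were not tested, and their depth is that of the counts given below.

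**Figure D2:**
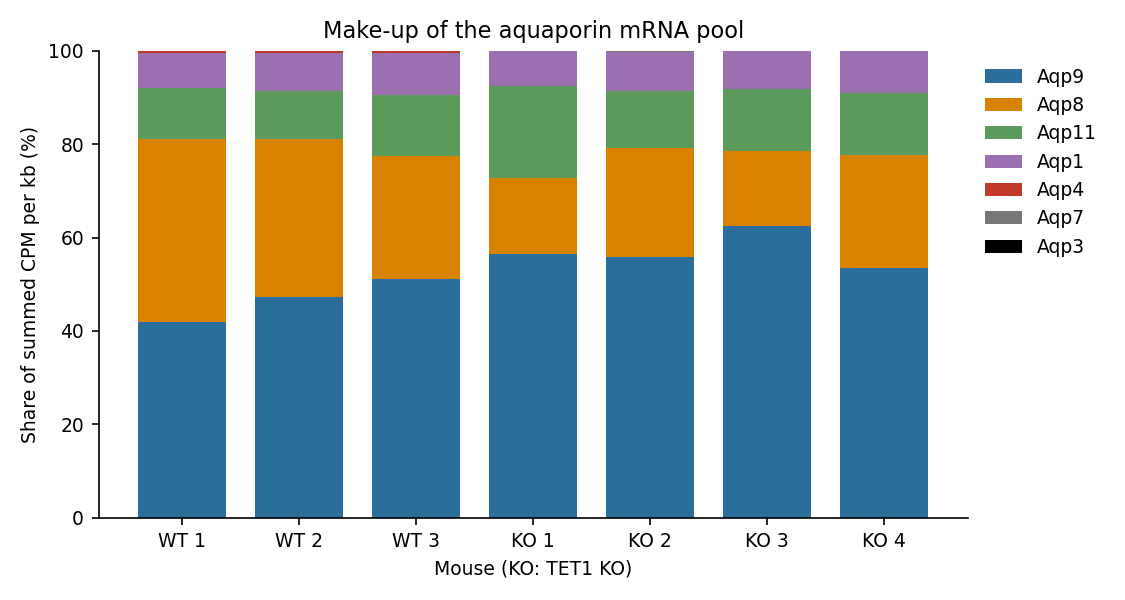
Share of each aquaporin in the summed CPM per kb of the 7 genes (vertical axis, percent), with 1 stacked bar per mouse. The Aqp8 segment takes 26.3% to 39.2% of the WT bars and 16.0% to 24.2% of the TET1 KO bars, and the Aqp9 segment is the largest in every bar.

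Aqp4 was the only member called by the edgeR rule. Its levels in WT replicates 1 to 3 were 4.09, 4.89 and 2.98 CPM (83, 118 and 54 counts), against TET1 KO levels in replicates 1 to 4 of 0.564, 0.845, 0.512 and 0.974 CPM (9, 12, 10 and 21 counts). The lowest WT liver still stood well above the highest TET1 KO liver, and the groups did not overlap. WT livers averaged 3.99 ± 0.960 CPM (SD, n = 3) of Aqp4 and TET1 KO livers 0.724 ± 0.222 CPM (SD, n = 4), which gave a log2 fold change of -2.45 (standard error, SE, 0.30, 95% interval -3.11 to -1.79, adjusted p = 0.00434 in edgeR), a level 5.47-fold lower. Among the 14754 genes tested it ranked 20 by p. The fold change stayed between -2.66 and -2.28 when each mouse was left out in turn, with adjusted p-values from 0.00379 to 0.0397, the highest without WT replicate 2.

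At 9 to 21 counts in the TET1 KO livers the remaining level was measured coarsely. Aqp4 (ENSMUSG00000024411) lies on chromosome 18 from 15389394 to 15410982 of GRCm38.p6 and shares 14359 bases of its span with a lncRNA gene, A830021F12Rik (15350563 to 15403752), which was not matched in the count tables. The kit kept the strand of the RNA, but whether the counting used it is not given in the sources used here. Dystrophin-associated proteins anchor Aqp4 in the membranes of astrocytes and muscle, and a list of 9 partners of Aqp4 held 7 genes of that complex and the channels Kcnj10 and Trpv4, which are not core members of the complex. Of these 8 were tested, with a median log2 fold change of -0.18. None of the 8 was called, 2 were higher and 2 lower at an unadjusted p under 0.05 in edgeR, and DESeq2 called 1 lower, Sntb1, where 26.3% of all tested genes had such a p and DESeq2 called 9.14%. Sntb1, a syntrophin, had 6.15, 16.0 and 7.40 CPM in WT and 3.38, 4.79, 3.84 and 4.59 CPM in TET1 KO livers, which did not overlap, with a log2 fold change of -1.25 (SE 0.31, edgeR adjusted p = 0.0600).

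The genes whose levels over the 7 mice were closest to those of Aqp4 were Gm19619, Rad51b and Tnnt1, with root mean square differences of 0.24, 0.25 and 0.25 in log2 CPM after each gene was centred on the mean of its group means. Rad51b, a gene of DNA repair, went from 21.7 to 3.92 CPM on average, Gm19619 from 9.37 to 1.83 CPM and Tnnt1, which encodes the troponin T of slow skeletal muscle, from 2.02 to 0.416 CPM. All 3 were called lower, and since the measure includes the difference between genotypes, a gene close to Aqp4 has to share it. Of 6 skeletal muscle markers, Ckm and Myh4 were at 0 to 0.0552 CPM in all livers, Acta1 averaged 0.373 CPM in WT and 0.216 CPM in TET1 KO livers, and Mylpf, which makes up most of the sum, averaged 0.733 and 1.01 CPM. Their summed level ranged from 0.871 to 1.33 CPM in WT and from 1.18 to 1.39 CPM in TET1 KO livers, and the part of muscle tissue in the level of Tnnt1 was not tested.

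Aqp8 (ENSMUSG00000030762) was lower in the TET1 KO group but did not pass the test. WT replicates 1 to 3 had 113.4, 106.6 and 71.9 CPM, and TET1 KO replicates 1 to 4 had 36.4, 63.8, 39.2 and 68.9 CPM. No TET1 KO liver reached the WT range, with WT replicate 3 only just above TET1 KO replicate 4, and the TET1 KO livers split into a lower pair (replicates 1 and 3) and a higher pair (replicates 2 and 4). The group means were 97.3 ± 22.3 CPM (SD, n = 3) and 52.1 ± 16.7 CPM (SD, n = 4), a log2 fold change of -0.90 (SE 0.24, 95% interval -1.44 to -0.37, unadjusted p = 0.00346, adjusted p = 0.0713 in edgeR). DESeq2 gave an adjusted p of 0.00961, edgeR with no filter on low counts 0.0462, and edgeR without TET1 KO replicate 4 gave 0.0369. Over the 14 alternatives the adjusted p ranged from 0.00961 to 0.286, with 4 of them under 0.05, and the fold change remained negative in all 14. Of these 4, a fit blocked by replicate number compared the same mice as the fit without TET1 KO replicate 4.

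**Figure D3:**
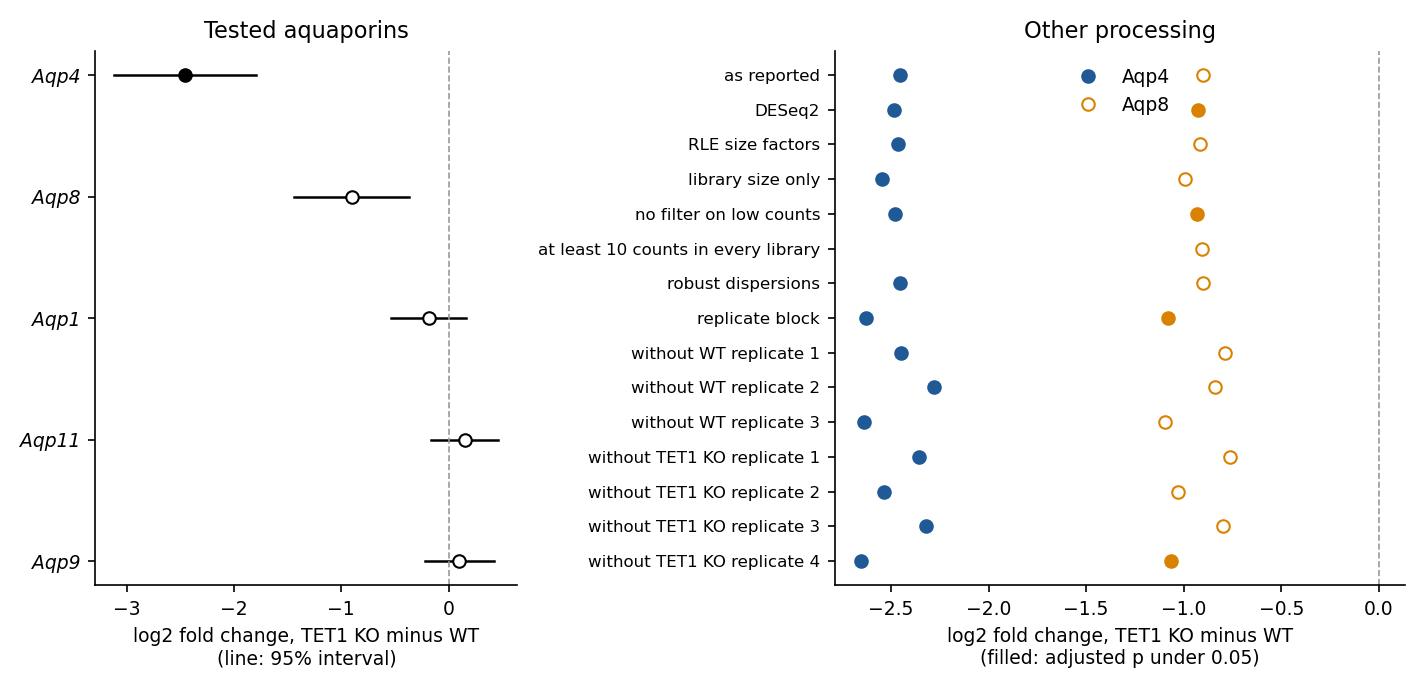
Left, log2 fold change (horizontal axis, TET1 KO minus WT) of the 5 tested aquaporins with its 95% interval; right, the log2 fold change of Aqp4 and Aqp8 under each alternative processing, where filled points have an adjusted p under 0.05. The Aqp4 points lie between -2.66 and -2.28 and are all filled, while those of Aqp8 lie between -1.10 and -0.76 and are filled in 4 alternatives.

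Aqp8 moves water into bile at the canaliculus, and the list of bile formation genes is set beside it. Of 10 tested genes none was called, 2 (Abcb4 and Slc4a4) were lower and 0 higher at an unadjusted p under 0.05 in edgeR, DESeq2 called these 2 lower, and the median log2 fold change was -0.12. Slc4a4, a sodium bicarbonate cotransporter, had the smallest p in the list. Its levels were 50.7, 88.8 and 61.2 CPM in WT and 17.97, 34.5, 34.8 and 40.4 CPM in TET1 KO livers. They did not overlap, with a log2 fold change of -1.07 (SE 0.26, edgeR adjusted p = 0.0598). Abcb11, the bile salt export pump of the canaliculus, overlapped between the groups with 268.6 to 371.8 CPM in WT and 307.1 to 334.4 CPM in TET1 KO livers (log2 fold change -0.07, edgeR adjusted p = 0.787). Slc10a1, the bile salt uptake carrier, overlapped as well (261.6 to 390.7 against 241.2 to 350.6 CPM, log2 fold change -0.13, edgeR adjusted p = 0.678). The genes closest to Aqp8 over the 7 mice were Gm13657, Syt9 and Gm14150, with root mean square differences of 0.13 to 0.15 in log2 CPM, and none of the 3 was called.

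Aqp9 (ENSMUSG00000032204), the main glycerol channel of liver, was the most abundant member and its groups overlapped. It had 317.9, 389.9 and 367.2 CPM in WT and 329.1, 402.5, 403.1 and 400.9 CPM in TET1 KO livers. Of the TET1 KO livers 3 stood close together above the highest WT liver, and replicate 1 lay among the WT livers. The log2 fold change was 0.10 (SE 0.15, 95% interval -0.22 to 0.42, adjusted p = 0.686 in edgeR). As a ratio to WT this interval ran from 0.857 to 1.34. TET1 KO replicate 1 was also the lowest liver in the summed markers of hepatocytes near the central vein, with 5388 CPM against 8070 to 8559 CPM in WT and 9858 to 10140 CPM in the other TET1 KO livers. Most of this sum is Cyp2e1, with 3953 CPM in that liver and 5759 to 7642 CPM in the other 6. Of the 7 markers, 5 (Glul, Cyp2e1, Oat, Slc1a2 and Rhbg) were lowest in that liver, whereas Cyp1a2 (534.2 CPM) and Lgr5 (8.95 CPM) lay there above all WT livers, at 223.1 to 486.1 and 5.68 to 8.07 CPM. Of the 7 central vein markers none was called in edgeR (1 higher and 0 lower at an unadjusted p under 0.05) or in DESeq2. Low marker levels in TET1 KO replicate 1 were not limited to this zone. That liver was also lowest for 7 of 8 erythroid and 4 of 6 Kupffer cell markers, and highest for 2 of 6 hepatocyte markers. The part of the central vein zone in the Aqp9 level was not tested.

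Without TET1 KO replicate 1 the adjusted p of Aqp9 stayed above 0.05, as it did in all 14 alternatives, where it ranged from 0.456 to 0.988. Tm2d2, Gm8991 and Rnf170 had the patterns closest to Aqp9, with root mean square differences of 0.03 to 0.05 in log2 CPM.

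Glycerol that enters through Aqp9 is phosphorylated by glycerol kinase, Gk, and then used for glucose or for glycerolipids, and several genes of these steps had lower values in TET1 KO livers. Of 17 listed genes of glycerol handling 13 were found and tested. Of these, 2 were called lower and 0 higher, 4 were lower and 1 higher at an unadjusted p under 0.05 in edgeR, DESeq2 called 4 lower and 0 higher, and the median log2 fold change was -0.21. The genes called lower, Gpam and Gpat3, encode enzymes that put the first acyl chain on glycerol-3-phosphate. Gpat3 fell from 11.2, 15.5 and 11.7 CPM in WT to 3.63, 4.65, 5.06 and 6.22 CPM in TET1 KO mice, with a log2 fold change of -1.38 (SE 0.21, edgeR adjusted p = 0.0112). Gpam fell from 23.8, 74.7 and 25.8 CPM to 11.7, 14.9, 15.9 and 12.4 CPM, with a log2 fold change of -1.60 (SE 0.35, edgeR adjusted p = 0.0440). Both genes had no overlap between groups, and WT replicate 2 was the highest liver for both. Without WT replicate 2 the log2 fold change of Gpam was -0.86 (adjusted p = 0.0897) and that of Gpat3 was -1.22 (adjusted p = 0.0772). The call of Gpam was lost as well without TET1 KO replicate 1, 2 or 3 (adjusted p from 0.0819 to 0.0996) and with robust dispersions (0.0727).

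Glycerol kinase and the dehydrogenase that follows it stood close to the threshold. Gk had 103.5, 124.7 and 85.5 CPM in WT and 48.5, 73.5, 59.5 and 69.0 CPM in TET1 KO livers, without overlap (log2 fold change -0.74, SE 0.17, edgeR adjusted p = 0.0547, DESeq2 adjusted p = 0.00483). Gpd1, the cytosolic glycerol-3-phosphate dehydrogenase, had 317.5, 434.6 and 306.6 CPM in WT and 230.0, 228.2, 229.6 and 213.9 CPM in TET1 KO livers, again without overlap (log2 fold change -0.65, SE 0.15, edgeR adjusted p = 0.0546, DESeq2 adjusted p = 0.00233). Gpd2, the mitochondrial counterpart, overlapped, with 40.2 to 55.7 CPM in WT and 24.9 to 57.4 CPM in TET1 KO livers (log2 fold change -0.36, edgeR adjusted p = 0.373). The log2 fold change of Gpd2 was -0.68 without TET1 KO replicate 1, its highest liver (edgeR adjusted p = 0.0736). Without WT replicate 2 it was -0.22 (edgeR adjusted p = 0.744). The values for Gk and Gpd1 lay below the WT range in every TET1 KO liver, and those of Gpd2 in 3 of 4.

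Aqp7 and Aqp3, which also pass glycerol, were near or at the floor. Aqp7 (ENSMUSG00000028427) had 0, 1 and 1 counts in WT and 0, 10, 0 and 0 counts in TET1 KO livers. All of its counts in the TET1 KO group came from replicate 2. In fat cells Aqp7 lets out the glycerol freed by lipolysis, and the summed level of 6 adipocyte markers was 21.1 CPM in that same liver against 0.278 to 3.30 CPM in the other 6. Of the 6 markers 5 were highest in that liver, and the sixth, Lep, was highest in WT replicate 2. Adiponectin (Adipoq) stood at 4.23 CPM there and at 0 in 5 of the other livers, and perilipin 1 (Plin1) stood at 4.93 CPM there and at no more than 0.166 CPM elsewhere. The part of fat tissue in the Aqp7 counts was not tested. Leaving out replicate 2, the other 6 livers had 0 or 1 count of Aqp7 each. Aqp3 (ENSMUSG00000028435), its neighbour on chromosome 4, had 1 or 2 counts in each of the 7 livers, including replicate 2. Neither gene passed the filter on low counts, and no fold change is given.

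**Figure D4:**
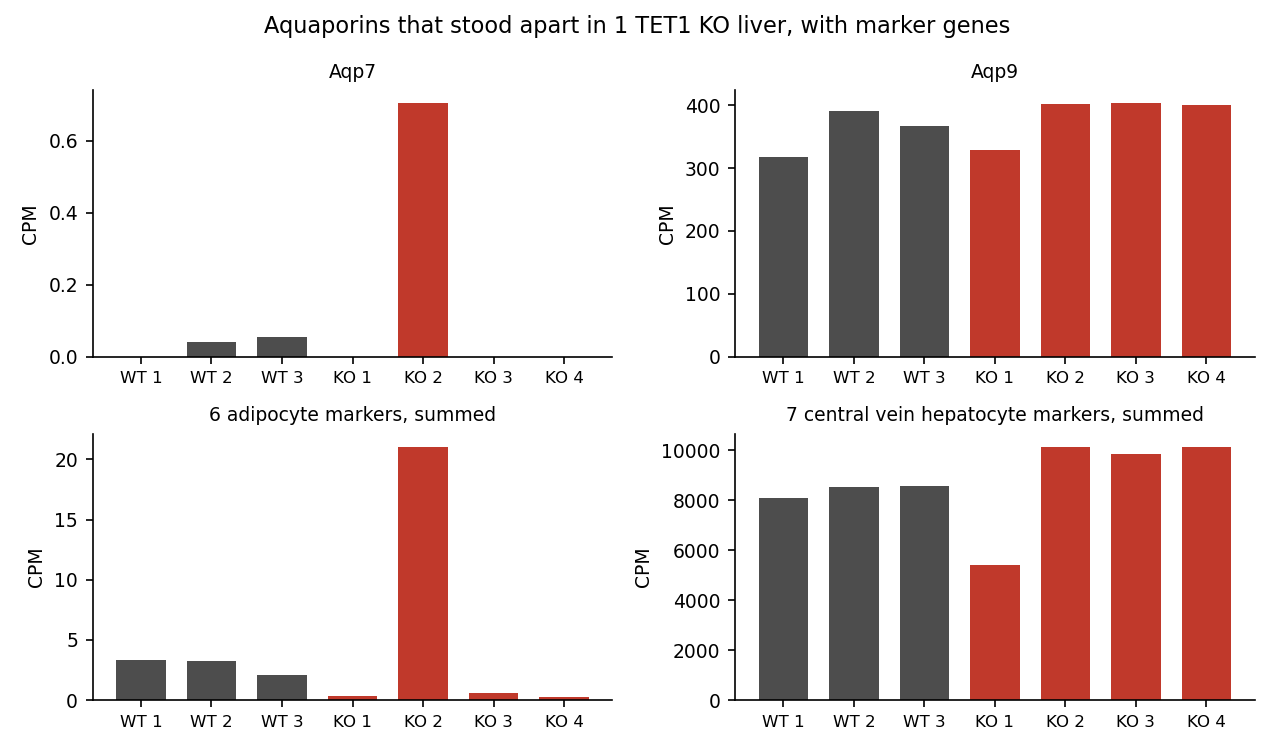
CPM of Aqp7 and Aqp9 (top) and summed CPM of 6 adipocyte and 7 central vein hepatocyte markers (bottom) in each mouse, with WT in grey and TET1 KO in red. TET1 KO replicate 2 is the highest bar for Aqp7 (10 counts) and for the adipocyte markers (21.1 CPM), and TET1 KO replicate 1 is the lowest bar for the central vein markers (5388 CPM).

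Aqp1 (ENSMUSG00000004655), the water channel of endothelium, bile ducts and red blood cells, overlapped between the genotypes. It had 36.4, 42.7 and 41.1 CPM in WT and 27.1, 38.6, 32.9 and 42.1 CPM in TET1 KO livers. Replicates 1 and 3 of the TET1 KO group were below all WT livers, and replicates 2 and 4 were within the WT range. The log2 fold change was -0.19 (SE 0.16, 95% interval -0.54 to 0.17, adjusted p = 0.467 in edgeR), and the adjusted p stayed above 0.05 in 14 alternatives, between 0.192 and 0.745. Markers of the cells that carry Aqp1 differed in direction. The 8 summed endothelial markers were 153.6 to 158.2 CPM in WT and 125.1 to 149.5 CPM in TET1 KO livers, and the 7 cholangiocyte markers were 29.8 to 38.2 CPM in WT and 46.3 to 68.3 CPM in TET1 KO livers. Most of the cholangiocyte sum was Spp1, at 19.8 to 29.1 CPM in WT and 30.7 to 43.7 CPM in TET1 KO livers. Krt19 and Epcam reached 6.68 and 4.87 CPM in TET1 KO replicate 4 and no more than 1.69 and 0.986 CPM in any other liver. Sox9 and Spp1 were instead highest in TET1 KO replicate 2. None of the 13 tested genes of both lists was called in edgeR, where at an unadjusted p under 0.05 4 cholangiocyte markers were higher and 3 endothelial markers lower, while DESeq2 called 2 and 1 of them, respectively, beside the 26.3% and 9.14% of all genes. The summed erythroid markers were 778.4 to 871.2 CPM in WT and 219.5 to 1114 CPM in TET1 KO livers. All 6 tested erythroid markers had a negative log2 fold change, with a median of -0.64. None was called in edgeR or DESeq2. At an unadjusted p under 0.05 in edgeR 2 were lower and 0 higher, beside the 26.3% of all genes. TET1 KO replicate 1 was the lowest liver for both Aqp1 and the erythroid markers, and replicate 4 the highest of its group for both. In WT livers the order was another, since WT replicate 1 had the highest erythroid sum (871.2 CPM) and the lowest Aqp1 (36.4 CPM). The part of these cells in the Aqp1 level was not tested. The genes closest to Aqp1 were Eef1a1, Rps2 and Saraf, with root mean square differences of 0.03 to 0.05 in log2 CPM, and none was called.

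Aqp11 (ENSMUSG00000042797), the member of the endoplasmic reticulum, overlapped too. It had 26.7, 26.9 and 30.0 CPM in WT and 36.7, 27.8, 27.4 and 31.8 CPM in TET1 KO livers. The highest liver was TET1 KO replicate 1, the liver in which Aqp8 and Aqp1 were lowest. The log2 fold change was 0.15 (SE 0.14, 95% interval -0.16 to 0.46, adjusted p = 0.511 in edgeR), with adjusted p-values between 0.485 and 0.817 in 14 alternatives. Pole3, Ctns and Cyhr1 were closest to it, at root mean square differences of 0.04 to 0.06 in log2 CPM, and none was called.

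The spread among mice of a group also differed between members. The SD of log2 CPM was 0.36 in WT and 0.47 in TET1 KO livers for Aqp8 and 0.35 and 0.39 for Aqp4. For Aqp9 it was 0.15 and 0.14, for Aqp11 0.09 and 0.20, and for Aqp1 0.12 and 0.28. These spreads were measured at different depths, with 9 to 21 counts of Aqp4 in TET1 KO livers and 395 or more counts of each of the other 4 genes in every liver, so the counting error is larger for Aqp4.

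The remaining mouse aquaporins were nearly absent. Mip, Aqp2 and Aqp6 had 0 counts in all 7 livers, which at these depths allows up to 3 counts a library. Aqp12, an aquaporin of the exocrine pancreas, had 1 count, in TET1 KO replicate 3. Aqp5, a channel of glands, had 2 counts in TET1 KO replicate 1 and 7 counts in TET1 KO replicate 4. In that last liver 5 of the 7 cholangiocyte markers (Krt7, Krt19, Epcam, Cftr and Tspan8) were at their highest, with Epcam at 4.87 CPM against 0.276 to 0.986 CPM in the other 6. The other markers were not, since Sox9 was the lowest of its group there (9.46 CPM against 12.7 to 20.9 CPM) and Spp1 was higher in TET1 KO replicate 2 (43.7 CPM against 39.2 CPM), as was the sum of the list (68.3 CPM against 65.5 CPM). The part of bile duct epithelium in the Aqp5 counts was not tested.

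**Figure D5:**
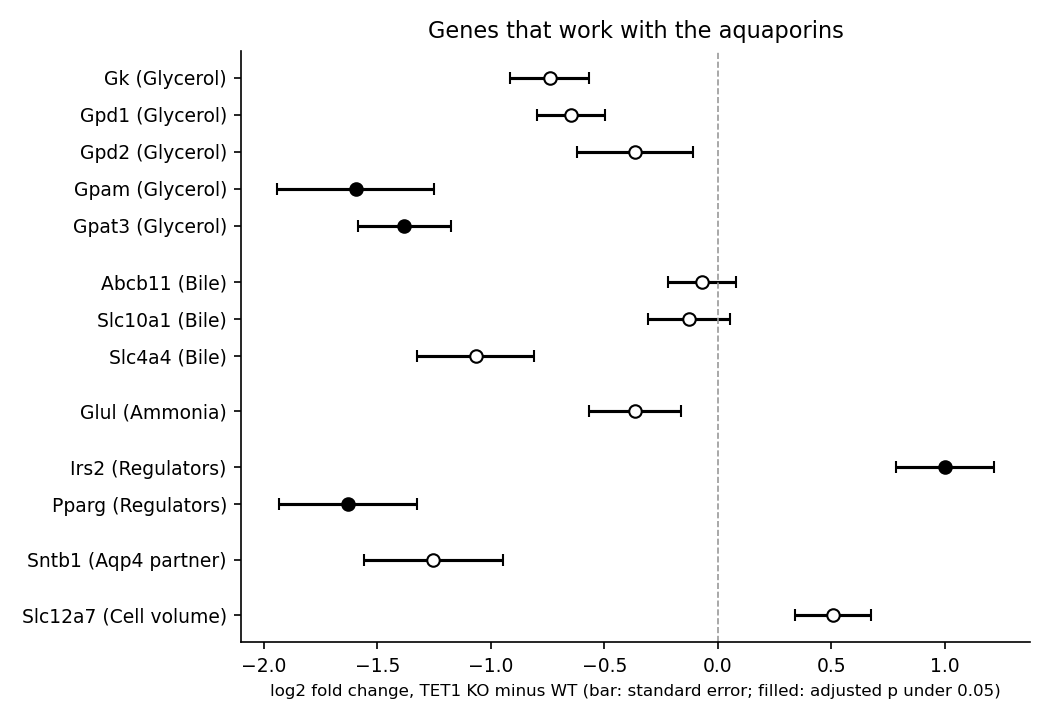
Log2 fold change (horizontal axis, TET1 KO minus WT, bars for the standard error) of the named genes that work with the aquaporins, where filled points have an adjusted p under 0.05 in edgeR. Gpam, Gpat3 and Pparg lie on the lower side and Irs2 on the higher side among the filled points.

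Among 13 genes reported to regulate aquaporins in liver or fat, all tested, 1 was called higher and 1 lower, with a median log2 fold change of 0.13. Pparg, a nuclear receptor of fat storage under which Aqp7 stands in fat cells, fell from 17.1, 15.4 and 8.11 CPM in WT to 2.44, 6.06, 4.35 and 4.69 CPM in TET1 KO livers, without overlap (log2 fold change -1.63, SE 0.31, edgeR adjusted p = 0.0265). Its call was lost without WT replicate 1 (adjusted p = 0.0549), WT replicate 2 (0.149) or TET1 KO replicate 3 (0.0786). Irs2 is an adaptor of the receptor for insulin, a hormone that lowers Aqp9 in liver and Aqp7 in fat. It rose from 6.60, 6.18 and 4.64 CPM to 13.5, 8.31, 10.8 and 13.8 CPM, also without overlap (log2 fold change 1.00, SE 0.22, edgeR adjusted p = 0.0437). Its call was lost with scaling to library size only (0.0578) and in 5 of the 7 fits that left out 1 mouse, without WT replicate 1, 2 or 3 or TET1 KO replicate 1 or 3 (adjusted p from 0.0548 to 0.176).

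Some aquaporins also pass urea or ammonia, and of 9 tested genes of urea and ammonia handling none was called in edgeR or DESeq2, 0 had an unadjusted p under 0.05 in edgeR, and the median log2 fold change was 0.08. The smallest p belonged to Glul, the glutamine synthetase of hepatocytes around the central vein, with 980.2 to 1157 CPM in WT and 568.8 to 947.6 CPM in TET1 KO livers (log2 fold change -0.37, edgeR adjusted p = 0.268). Slc14a1, a urea transporter, was below the filter with 5, 6 and 5 counts in WT and 2, 1, 1 and 0 counts in TET1 KO livers, which did not overlap and were not tested. Of 10 tested carriers that set cell volume none was called in edgeR or DESeq2, 1 was higher and 1 lower at an unadjusted p under 0.05 in edgeR, and the median log2 fold change was 0.03. Slc12a7, a potassium chloride cotransporter, had the smallest p, with 89.0 to 123.3 CPM in WT and 125.0 to 166.7 CPM in TET1 KO livers (log2 fold change 0.51, edgeR adjusted p = 0.1003). Over the 6 lists together, 63 genes were tested, of which 1 was called higher and 3 lower, against 0.874% and 1.15% of all tested genes.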

How the data were processed

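Hepatic mRNA from mice on HFD was compared between WT (n = 3) and TET1 KO (n = 4). Per the labels, reads were trimmed with Trimmomatic 0.36, aligned to GRCm38 with GSNAP and counted with featureCounts 1.5.3, and the authors deposited raw read counts for each mouse, not normalized. Whether counting used the strand is not given in the sources used here. After 5 repeated entries were left out, 51426 genes were joined by Ensembl identifier. With edgeR 4.0.16 (R 4.3.3), genes passing filterByExpr were scaled by TMM and tested with the quasi-likelihood test (common biological coefficient of variation 0.208). CPM are TMM-scaled; log2 CPM used a prior count of 2. Intervals of 95% cover the fit. Exon lengths were taken from GENCODE M1. DESeq2 1.42.0 and other alternatives are in the closing section. On simulated counts edgeR recovered 84 of 100 genes changed 2-fold and 100 of 100 changed 4-fold, with 11 false calls among 14543 genes. The changes were placed only in genes with a higher mean count than Aqp4, so its depth was not covered. The simulated noise followed the trend with level and did not vary further from gene to gene. Libraries of a genotype differed by a chi-square per degree of freedom of at least 27.4, so no pair differed by less than the sampling noise. Members and lists were chosen with earlier results of these data known. Genes were named by rule: all mouse aquaporins, Tet1, each called gene of the 6 lists or else its smallest p, Gk, Gpd1, Gpd2, Abcb11, Slc10a1 and Slc14a1, and the 3 genes closest to each tested member. Abcb4, Kcnj10, Trpv4, the marker genes and genes overlapping a member were named after their values were seen. Figures were drawn with matplotlib 3.10.9.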

Additional observations from a re-analysis of the deposited data

Results flagged for a closer look

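In a group of 4 livers, 1 liver was taken to stand apart when its gap to the nearest other, divided by the range of the group, exceeded Dixon's 95% critical value. This was scanned for 40 levels in the TET1 KO livers, 17 of genes and 23 of summed lists, and 7 stood apart. By the rate of 1 in 20 about 2 would, if the levels were independent and normally distributed. They are not independent, since some sums contain genes that were also scanned, so no excess can be read from the 7. Aqp7 in TET1 KO replicate 2 gave a value of 1.0, since the other 3 livers had 0 counts, and the summed adipocyte markers in the same liver gave 0.984. Aqp9 in TET1 KO replicate 1 gave 0.97 on the low side, and the summed central vein markers in the same liver gave 0.941, also on the low side. Gpd1 in TET1 KO replicate 4 gave 0.883 on the low side, although its 4 values spanned only 213.9 to 230.0 CPM. The summed bile formation genes gave 0.852 in TET1 KO replicate 3, the highest liver of its group at 1904 CPM against 1566 to 1616 CPM. The summed carriers of cell volume gave 0.843 in TET1 KO replicate 4, with 527.5 CPM against 461.8 to 472.1 CPM. WT livers, with 3 per group, were not scanned.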

How the results depend on the processing

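Aqp4 was called lower in all 13 alternatives that gave a value. Requiring at least 10 counts in every library removed it (TET1 KO replicate 1 had 9 counts), so that 0 aquaporins were called lower under that filter. Besides Aqp4, Aqp8 was called with DESeq2, with no filter on low counts, with the replicate block and without TET1 KO replicate 4, so 2 aquaporins were then lower, as they were at an adjusted p under 0.1. Over the fits without 1 mouse, 1 to 2 aquaporins were lower, and 0 were higher in any alternative. Aqp1, Aqp9 and Aqp11 kept their sign and stayed above the threshold in all 14 alternatives. Aqp3 and Aqp7 gave no adjusted p in DESeq2, and with no filter on low counts their adjusted p-values were 0.840 and 0.524.

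For the other listed genes, DESeq2 called 2 higher and 8 lower, library size only 0 higher and 7 lower, and no filter on low counts 7 lower. Without 1 mouse, 0 to 2 were higher and 0 to 5 lower, with none in either direction without WT replicate 2 and 2 and 5 without TET1 KO replicate 4. Over all genes, DESeq2 called 633 higher and 699 lower in place of 129 and 169, no filter on low counts 245 and 347, and library size only 107 and 312, which took the share of higher genes among those called from 43.3% to 25.5%. Leaving out 1 mouse gave 16 to 427 higher and 22 to 464 lower, the fewest without WT replicate 2 and the most without TET1 KO replicate 4. The log2 fold change of Abcb11 lay between -0.22 and 0.0080 and that of Slc10a1 between -0.27 and 0.028 without 1 mouse, both turning positive without WT replicate 2. The cause of these shifts was not tested.

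With the replicate block, 670 genes were higher and 656 lower, 2 aquaporins were lower, and 4 other listed genes were higher and 8 lower. TET1 KO replicate 4 has no WT liver of its number, so it adds nothing to the genotype difference in that fit. The block and the fit without that liver thus compare the same mice and are not independent alternatives. The labels used here do not state that the numbers pair mice. The deviations of same-numbered livers from their group means correlated at 0.209, -0.123 and -0.0964. WT replicate 2 correlated best with TET1 KO replicate 4 (0.311). With so few livers, each centred on its own group, these correlations cannot decide whether mice were paired.

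With the length of the longest transcript in place of all exons, the share of Aqp9 became 55.8% in WT and 65.9% in TET1 KO livers, that of Aqp1 6.57% and 6.31%, and that of Aqp11 in WT 9.12%, and the shift between Aqp8 (28.1% and 16.4%) and Aqp9 had the same direction. Depth limits Aqp4 in TET1 KO livers to 9 to 21 counts. Aqp3 lay under the floor in every liver, and Aqp7 in every liver but TET1 KO replicate 2 (10 counts). The labels used here give no batch or date.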
